A study of Mus musculus with 4 samples.

Results

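The genes described here are 9 members of membrane transporter families that carry bile acids, steroid conjugates, thyroid hormones and other organic anions into cells. They comprise 6 genes of the Slco (organic anion transporting polypeptide) family, namely Slco1a1, Slco1a4, Slco1b2, Slco2a1, Slco2b1 and Slco3a1, and 3 of the Slc10 family of sodium-dependent carriers, namely Slc10a1, Slc10a2 and Slc10a5. A gene was included when a probe set of the array was paired with its symbol and no other, and where a gene had more than 1 such probe set the brightest over the 4 arrays was kept. All 9 were found among 22180 genes so named, and all 9 were among the 12458 genes bright enough to be tested. The set was chosen by family, with the KO minus WT differences of these arrays already known and with Slco1a1 picked as its extreme member, so the differences of the 9 genes are given as a description and without a test.

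The samples were pools of liver RNA from male mice, 2 pools from wild type (WT) animals and 2 from Nrg4 knockout (KO) animals, each measured on 1 Affymetrix Mouse Gene ST 2.1 array. Nrg4 encodes neuregulin 4, a secreted growth factor related to EGF. Mice of both genotypes received the same NASH (non-alcoholic steatohepatitis) diet, which produces fatty liver with inflammation, from 3 months of age for 20 weeks, and were fed when the livers were taken. There was no group on a normal diet, so every difference is between genotypes within this diet. The sources used here give neither the number of animals in a pool nor the strain nor how the knockout allele was made. Each SE given comes from limma, which combines the spread between pools with that of all genes tested, and pools are averages over animals, so no value shows the spread between single animals. Nrg4 itself read 2.54 and 2.30 in the WT pools and 0.93 in each KO pool. In KO pool 1 the genes Krt7, Slc10a4 and Cyp2b10 had the same value as Nrg4, 0.932305, so that value is not particular to Nrg4. The values are log2 expression values, on which a difference of 1 is a doubling, and the median of all probe sets was 0.54. A probe set near that median has little signal above the bulk of the array. Levels are compared between pools for the same gene and not between genes.

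Hepatocytes take up bile acids from portal blood mainly through the sodium-dependent carrier encoded by Slc10a1, known as NTCP. Sodium-independent uptake of bile acids, bilirubin conjugates, hormones and many drugs runs through the Slco proteins of the same sinusoidal membrane. In mouse liver Slco1a1 is more abundant in males and Slco1a4 in females. In whole liver RNA a lower value can mean less RNA per cell or fewer cells of the type that carries it, and these cannot be told apart here.

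Slco1b2, Slco1a4 and Slco1a1 belong to 1 gene cluster on chromosome 6 (RefSeq, build GRCm38.p6). Slco1b2 spans chr6:141629452-141686646, Slco1a4 spans chr6:141805438-141856284 and Slco1a1 spans chr6:141907281-141946962. Slco1a4 ends 50996 bases from Slco1a1, and both are read from the minus strand, while Slco1b2 is read from the plus strand. The 300 bases around the start of each gene, 250 before it and 50 after, are printed here. They were chosen because Slco1a1 differed so widely between the genotypes, and Slco1a4 and Slco1b2 far less. The corresponding window of Slc10a1, the upstream of its 2 starts in the table, is printed as that of the main bile acid carrier. Capitals mark matches to TTCNNNGAA, the palindrome bound by STAT5, the transcription factor that growth hormone activates. The windows lie at chr6:141946913-141947212, chr6:141856171-141856470, chr6:141629268-141629567 and chr12:80968656-80968955, in the order of the lines, and all sequences are from RefSeq.

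Slco1a1: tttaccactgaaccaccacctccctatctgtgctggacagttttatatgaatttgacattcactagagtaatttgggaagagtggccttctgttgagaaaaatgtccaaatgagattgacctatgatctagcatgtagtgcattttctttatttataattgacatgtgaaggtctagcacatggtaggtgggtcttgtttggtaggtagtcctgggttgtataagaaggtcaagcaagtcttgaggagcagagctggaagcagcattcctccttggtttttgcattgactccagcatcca
Slco1a4: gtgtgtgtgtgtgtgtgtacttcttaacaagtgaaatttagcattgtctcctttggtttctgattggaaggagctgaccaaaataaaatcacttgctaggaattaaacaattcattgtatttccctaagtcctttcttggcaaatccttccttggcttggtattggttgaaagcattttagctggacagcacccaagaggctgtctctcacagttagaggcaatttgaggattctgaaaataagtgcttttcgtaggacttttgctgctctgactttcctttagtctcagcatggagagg
Slco1b2: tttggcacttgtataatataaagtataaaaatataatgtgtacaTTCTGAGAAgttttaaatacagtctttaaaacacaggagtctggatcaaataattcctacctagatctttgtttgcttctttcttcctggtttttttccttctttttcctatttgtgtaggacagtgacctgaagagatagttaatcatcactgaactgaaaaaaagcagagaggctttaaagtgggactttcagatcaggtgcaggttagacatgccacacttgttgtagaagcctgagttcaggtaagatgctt
Slc10a1: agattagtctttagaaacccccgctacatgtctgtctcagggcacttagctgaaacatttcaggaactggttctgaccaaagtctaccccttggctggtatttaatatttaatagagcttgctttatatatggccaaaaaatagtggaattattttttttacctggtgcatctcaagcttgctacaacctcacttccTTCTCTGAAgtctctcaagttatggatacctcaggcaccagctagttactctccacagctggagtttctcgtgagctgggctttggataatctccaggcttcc

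Of the 9 genes, 7 had 10 promoter windows in the RefSeq table, and Slco3a1 and Slc10a5 had no entry there. The STAT5 palindrome occurred in 4 of the 10 windows, belonging to 3 genes, against 8.3% of 32851 promoters of the same length. The windows of Slco1a1 and Slco1a4 held no match to it, and enrichment was not tested. In Slco1b2 the match TTCTGAGAA lay 206 to 198 bases before the start, and in Slc10a1 the match TTCTCTGAA lay 53 to 45 bases before it. Slco2b1, which has 3 start sites in the table, held TTCCGGGAA before 1 of them and TTCATGGAA after another. The core of an HNF1 site occurred on the reverse strand of the Slc10a2 window, as AATTATTAAC, and in 0.399% of all promoters. HNF1 is a homeodomain factor of liver, gut and kidney. Both strands were also searched for the inverted repeat of the bile acid receptor FXR, for CAAAGGTCA of HNF4 and TGTTTAC of the FOXA factors. These occurred in 0.00913%, 0.478% and 3.65% of all promoters and in none of the 10 windows. No motif overlapped another in the 10 windows, and a match of letters is not evidence that a factor binds.

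Slco1a1, which encodes the organic anion transporter Oatp1a1 of the sinusoidal membrane, was the member that differed most. Its log2 value was 6.98 and 7.25 in the WT pools, against 0.76 and 1.42 in the KO pools. The KO pools lay far below both WT pools, with 5.56 between the nearest pools of the 2 genotypes, against 0.27 between the WT pools and 0.66 between the KO pools. The difference was -6.03 ± 0.28 (SE, n = 2 pools per genotype), the largest in size of the 12458 genes. In the WT pools the probe set lay above 97.4% and 98.0% of all probe sets of its array, and in the KO pools above 53.8% and 65.6%. Since the KO values reach the bulk of the array, no fold is given and the difference may be compressed.

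Slco1a4 encodes Oatp1a4, a carrier of bile acids, cardiac glycosides and steroid conjugates. Its values were 5.10 and 4.09 in the WT pools, against 4.87 and 5.79 in the KO pools. The genotypes overlapped, because WT pool 1 read higher than KO pool 1. The difference of 0.73 ± 0.45 (SE) was smaller than the 1.01 between the WT pools and the 0.92 between the KO pools.

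Slco1b2 encodes Oatp1b2, the mouse counterpart of the human OATP1B carriers of bilirubin, bile acids and statins. It read 8.88 and 8.86 in the WT pools, against 8.60 and 8.73 in the KO pools. Both KO pools were below both WT pools, by 0.13 at the nearest. The difference was -0.20 ± 0.19 (SE), 1.15-fold lower in KO, and it became -0.13 when the arrays were quantile normalized.

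**Figure D1:**
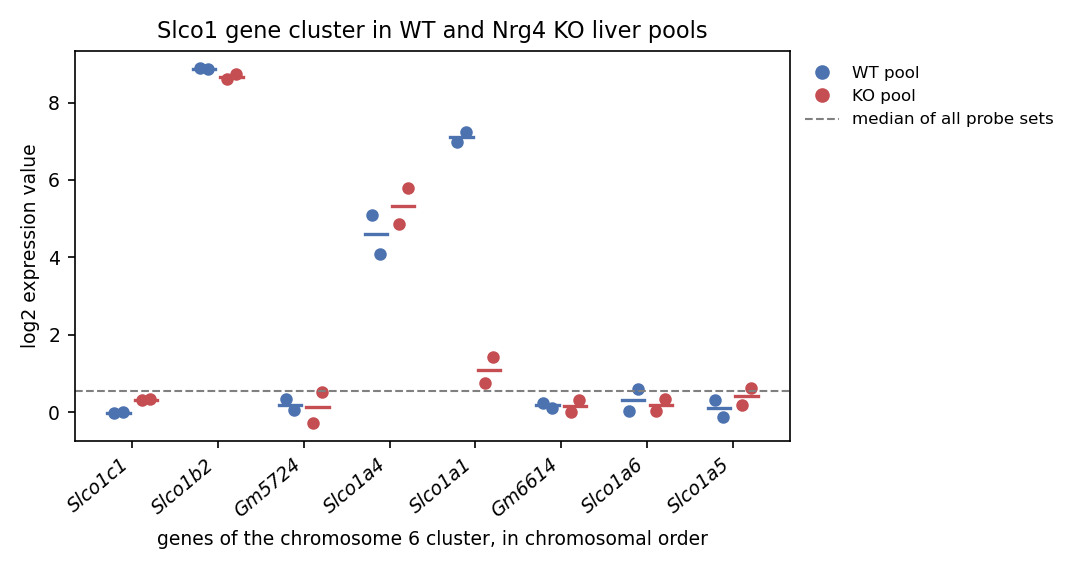
Log2 expression value (vertical axis) of the genes of the Slco1 cluster with a probe set of their own, in chromosomal order (horizontal axis). Points are single RNA pools, short lines are group means of 2 pools and the dashed line is the median of all probe sets, 0.54. Slco1a1 drops from about the level of 7 to near the dashed line in the KO pools, while Slco1b2 and Slco1a4 stay well above it in every pool.

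The plot of the Slco1 cluster also shows 5 further genes that lie next to or between these members, and their means over the 4 arrays were all below the median of all probe sets. Slco1c1, a thyroid hormone carrier of the blood-brain barrier, read -0.02 and -0.01 in the WT pools, against 0.30 and 0.34 in the KO pools. Gm5724, between Slco1b2 and Slco1a4, read 0.34 and 0.05 in WT, against -0.28 and 0.52 in KO. Gm6614, the next gene past Slco1a1 at 24870 bases, read 0.24 and 0.10 in WT, against 0.005 and 0.30 in KO. Slco1a6 and Slco1a5, further along, differed by -0.12 ± 0.26 and 0.31 ± 0.25 (SE). At these levels neither a loss nor a gain of this size can be seen reliably. The Slco1a genes are similar in sequence, so a probe set may in part measure a relative. Slco1a4 read between 4.09 and 5.79 in the same pools in which Slco1a1 spanned 0.76 to 7.25.

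Slc10a1, which encodes NTCP, was the Slc10 member with the largest difference. Its values were 8.82 and 8.60 in the WT pools, against 7.67 and 8.30 in the KO pools. Both KO pools were below both WT pools, but by 0.30 at the nearest, while the KO pools differed from each other by 0.63. The difference was -0.72 ± 0.27 (SE), or 1.65-fold lower in KO. Leaving out KO pool 1 reduced it to -0.41, and leaving out KO pool 2 brought it to -1.04. Of all genes tested, 7.15% differed by as much or more in either direction.

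Slc10a2 encodes ASBT, the apical bile acid carrier of ileum, kidney tubule and cholangiocytes. Its values of 3.76 and 2.90 in the WT pools, against 2.86 and 3.61 in the KO pools, overlapped. The difference of -0.09 ± 0.38 (SE) was far smaller than the distances of 0.85 and 0.74 between pools of the same genotype. Its sign turned without KO pool 1, to 0.28, and without WT pool 1, to 0.33. Among the cholangiocyte markers, Sox9 read 3.41 and 2.22 in the WT pools, against 3.30 and 4.05 in the KO pools, with a difference of 0.86 ± 0.46 (SE; limma, adjusted p = 0.597). Epcam, an adhesion protein, read 1.31 and 0.96 in WT, against 1.35 and 2.35 in KO (0.71 ± 0.36 SE; adjusted p = 0.587). Krt7 read 0.504 and 0.497 in WT, below the median of all probe sets, against 0.93 and 0.88 in KO (0.40 ± 0.19 SE; adjusted p = 0.551). Its KO pool 1 value is the one shared with Nrg4. Krt19 read between 0.64 and 0.81 in the 4 pools. The KO pools thus took either order among these markers. The part of cholangiocyte number in the Slc10a2 values was not tested.

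Slc10a5 encodes a liver and kidney protein of the family whose substrates are not well known. It read 5.35 and 5.57 in the WT pools, against 4.91 and 5.37 in the KO pools. KO pool 2 lay just above WT pool 1, so the genotypes overlapped, and the difference was -0.32 ± 0.24 (SE), 1.25-fold lower in KO. Leaving out 1 pool gave differences from -0.55 to -0.09.

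**Figure D2:**
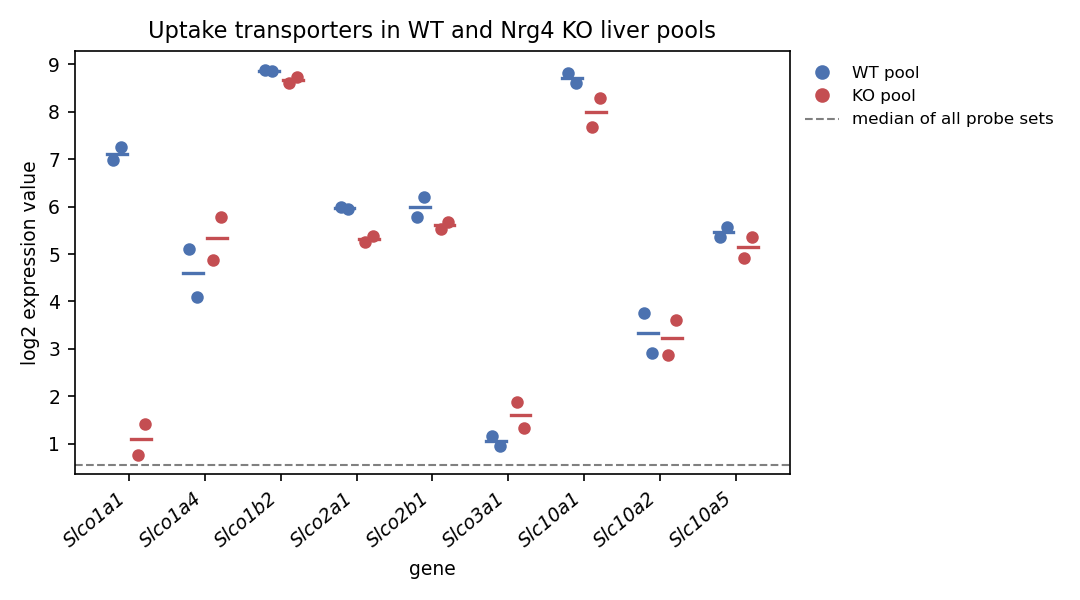
Log2 expression value (vertical axis) of the 9 transporters (horizontal axis) in each RNA pool. Points are pools, short lines are means of 2 pools and the dashed line is the median of all probe sets, 0.54. Pools of the 2 genotypes overlap for Slco1a4, Slc10a2 and Slc10a5, and the Slco3a1 values run from 0.96 to 1.87.

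Slco2a1 encodes the prostaglandin transporter, which clears prostaglandins from the circulation and is strong in endothelium. It read 5.997 and 5.94 in the WT pools, against 5.26 and 5.37 in the KO pools. The 2 genotypes were apart by 0.57 at the nearest, while pools of the same genotype differed by at most 0.12. The difference was -0.65 ± 0.19 (SE), 1.57-fold lower in KO, and it stayed between -0.71 and -0.60 without any 1 pool. It was -0.59 with quantile normalization. Of all genes tested, 9.21% differed by as much or more. The 11 sinusoidal and vascular endothelial markers, all tested, had a median difference of 0.07, with 5 lower and 6 higher in KO. Their mean log2 level was 4.44 and 4.47 in WT, against 4.47 and 4.51 in KO. Cdh5, the cadherin of endothelial junctions, was at 0.33 ± 0.21 (SE; limma, adjusted p = 0.653), Vwf, the von Willebrand factor, at 0.30 ± 0.21 (SE; adjusted p = 0.688) and the receptor Gpr182 at -0.26 ± 0.20 (SE; adjusted p = 0.714). The part of endothelial content in the Slco2a1 values was not tested.

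Slco2b1 encodes Oatp2b1, a carrier of steroid sulfates and statins. Its brighter probe set read 5.78 and 6.20 in the WT pools, against 5.53 and 5.68 in the KO pools. The KO pools were below the WT pools by 0.10 at the nearest, less than the 0.42 between the WT pools. The difference was -0.39 ± 0.23 (SE), 1.31-fold lower in KO, and -0.17 without WT pool 2. Slco2b1 was the member with 2 probe sets. The other, left out by the rule, read 0.71 and 0.39 in WT, against -0.27 and -0.05 in KO. It gave a difference of -0.71 at levels 0.35 below the median of all probe sets, so its direction was the same but its size has little footing.

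Slco3a1 is a widely expressed carrier of prostaglandins and thyroid hormone. It read 1.16 and 0.96 in the WT pools, against 1.87 and 1.34 in the KO pools. Both KO pools were above both WT pools, by 0.17 at the nearest, and the KO pools differed from each other by 0.53. The difference was 0.54 ± 0.25 (SE), and leaving out 1 pool gave 0.28 to 0.81. Its WT mean was only 0.52 higher than the typical probe set, where folds are compressed.

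**Figure D3:**
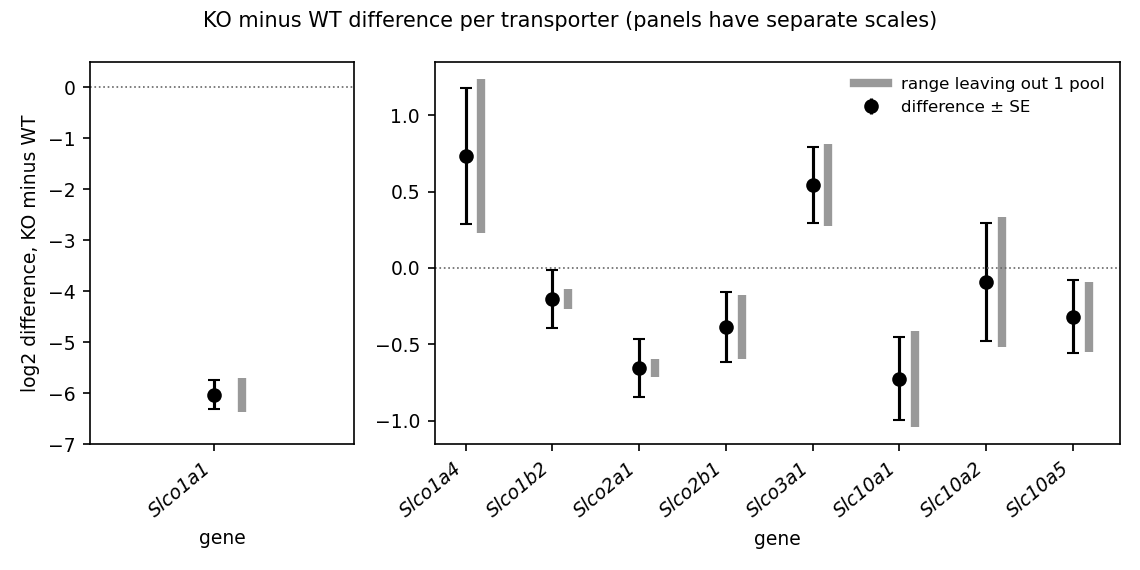
Log2 difference, KO minus WT (vertical axis), of each transporter (horizontal axis), with Slco1a1 on a scale of its own. Points with bars are the difference and its SE from limma with 2 pools per genotype, and grey bars span the 4 differences obtained by leaving out 1 pool. The Slco1a1 range of -6.36 to -5.70 is far from 0, while the Slc10a2 range of -0.52 to 0.33 crosses it.

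Across the set, 7 of 9 transporters were lower in KO and 2 higher, with a median difference of -0.32, or -0.26 over the 8 without Slco1a1. Over all genes tested, 48.4% were lower in KO and the median was 0.01. Both KO pools lay below both WT pools for 5 members, namely Slco1a1, Slco1b2, Slco2a1, Slco2b1 and Slc10a1, beside 19.5% of all genes tested. Both lay above for 1 member, Slco3a1, beside 22.2% of all genes. With 2 pools against 2, an exact two-sided permutation test cannot go below p = 0.333. In the limma fit of all genes, Slco1a1 was the 1 member below an adjusted p of 0.05, beside 0.0241% of genes called lower and 0.0241% called higher. With a variance that follows intensity it was again the 1 member, beside 0.698% and 0.393%. Nothing is read from these counts, since the members were chosen with the contrast known. Without any 1 of the 4 pools, limma called 0 genes at all, Slco1a1 included, while those with an unadjusted p under 0.05 numbered 906 to 1314.

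The KO pools were not alike for these genes. KO pool 1 read lower than KO pool 2 in 8 of 9 members, Slco3a1 being the exception, beside 57.6% of all genes tested. Relative to the WT mean, the median member was at -0.47 in KO pool 1 and -0.14 in KO pool 2, while the median of all genes was at -0.02 and 0.04. The median distance between the KO pools was 0.53 for the members and 0.26 for all genes tested. Between the WT pools these distances were 0.22 and 0.23. The order of the KO pools was not particular to the transporters. Among the lists described below, male-biased genes had mean levels of 4.27 in KO pool 1 and 4.73 in KO pool 2. For bile acid synthesis these were 6.15 and 6.52, and for transcription factors 5.45 and 5.66. The order was the reverse for the export, female-biased, scaffold and inflammatory lists. The mean log2 level of 11 hepatocyte markers was 9.44 and 9.39 in the WT pools, 9.23 in KO pool 1 and 9.31 in KO pool 2. These markers had a median difference of -0.05, with 7 lower and 4 higher, and the part of hepatocyte content in the transporter values was not tested. The markers with the smallest p were Cps1, of the urea cycle, at -0.39 ± 0.19 (SE; limma, adjusted p = 0.564), the tyrosine aminotransferase Tat at -0.43 ± 0.20 (SE; adjusted p = 0.554) and Serpina1c, a protease inhibitor, at -0.46 ± 0.22 (SE; adjusted p = 0.567).

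**Figure D4:**
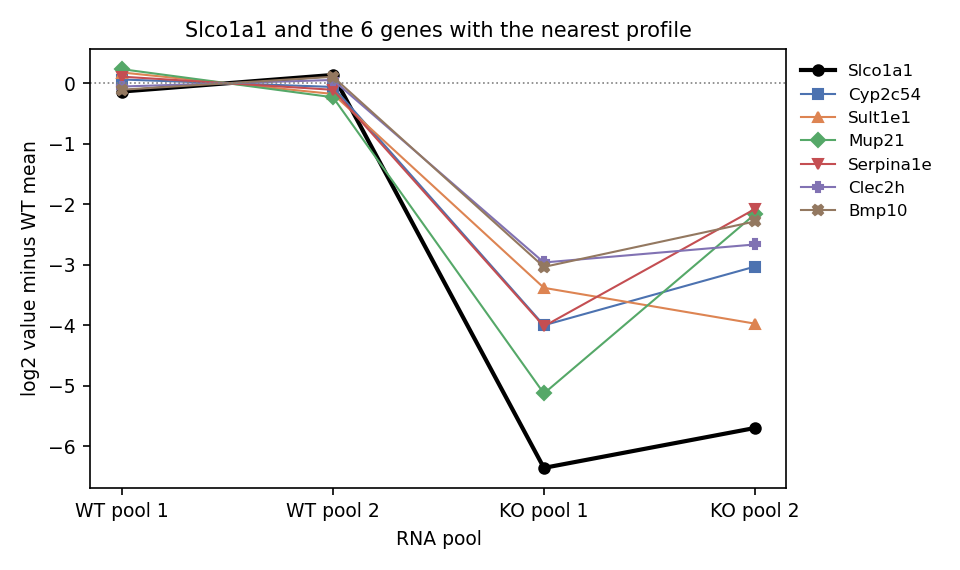
Log2 value minus the WT mean (vertical axis) in each of the 4 RNA pools (horizontal axis) for Slco1a1 (black) and the 6 genes with the nearest profile. Lines join the values of a gene and imply no order of pools. Slco1a1 is the lowest of the 7 in both KO pools, and all genes but Sult1e1 are lower in KO pool 1 than in KO pool 2.

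The 6 genes whose profile lay nearest to that of Slco1a1 were found by Euclidean distance between values centred per gene over the 4 arrays. Cyp2c54, a cytochrome P450, was the nearest at a distance of 2.54. It read 7.39 and 7.27 in WT, against 3.33 and 4.30 in KO. Sult1e1, the oestrogen sulfotransferase, followed at 2.55, with 4.62 and 4.27 in WT, against 1.06 and 0.47 in KO. The next were Mup21, a major urinary protein, at 2.93, and Serpina1e, a protease inhibitor, at 3.13. The C-type lectin gene Clec2h stood at 3.23 and Bmp10, a ligand of the bone morphogenetic protein family, at 3.37. Mup21 spanned 0.46 to 3.43 in the KO pools, whereas Slco1a1 was near the bulk of the array in both. These distances rest on 4 arrays and a single contrast, and they are large because no other gene tested differed as much as Slco1a1. The differences of the 6 genes ran from -3.68 (Sult1e1) to -2.66 (Bmp10), against -6.03 for Slco1a1.

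Most other genes of the SLCO and SLC10 families had little signal in these livers. Of 14 that were listed and had a probe set of their own, 13 had means below the median of all probe sets and were not tested, among them the testis genes Slco6b1, Slco6c1 and Slco6d1. Slc10a7, which affects calcium handling and glycosylation, was the 1 that was tested. It read 3.34 and 2.47 in the WT pools, against 2.77 and 2.91 in the KO pools, a difference of -0.07 ± 0.32 (SE; limma, adjusted p = 0.959), with 0.36 without WT pool 1.

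Carriers that move bile acids and anions out of hepatocytes were read beside the uptake carriers. Of 8 tested genes, 7 had a higher mean in KO and 1 a lower mean, with a median difference of 0.14. By limma 0 passed an adjusted p of 0.05, 0 had an unadjusted p under 0.05 (3.92% of all genes tested were lower and 6.37% higher at that p) and 0 passed with a variance that follows intensity. Abcb11, the bile salt export pump of the canaliculus, read 7.04 and 7.03 in the WT pools, against 7.42 and 7.23 in the KO pools (0.29 ± 0.19 SE; adjusted p = 0.668). Abcg2, which exports sulfated steroids and urate, was the lower gene, at -0.43 ± 0.20 (SE; adjusted p = 0.545), and Abcb1a, a multidrug exporter, was at 1.02 ± 0.49 (SE; adjusted p = 0.564). The difference between uptake and export carriers was not tested.

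Of 10 genes of bile acid synthesis and conjugation, 8 were lower in KO, with a median of -0.31. By limma 0 passed the adjusted threshold, and 2 were lower at an unadjusted p under 0.05 (3.92% of all genes tested). With a variance that follows intensity 1 was called lower (0.698% of all genes tested). The oxysterol hydroxylase Cyp7b1 read 7.18 and 6.93 in WT, against 4.52 and 5.58 in KO. It differed by -2.01 ± 0.37 (SE; adjusted p = 0.259, or 0.0121 with a variance that follows intensity). Akr1d1, a steroid reductase of the pathway, was at -0.58 ± 0.19 (SE; adjusted p = 0.415). Cyp8b1, which makes cholic acid, was at -0.80 ± 0.37 (SE; adjusted p = 0.548), and like Slc10a1 it was lower in KO pool 1 (5.02) than in KO pool 2 (6.07).

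**Figure D5:**
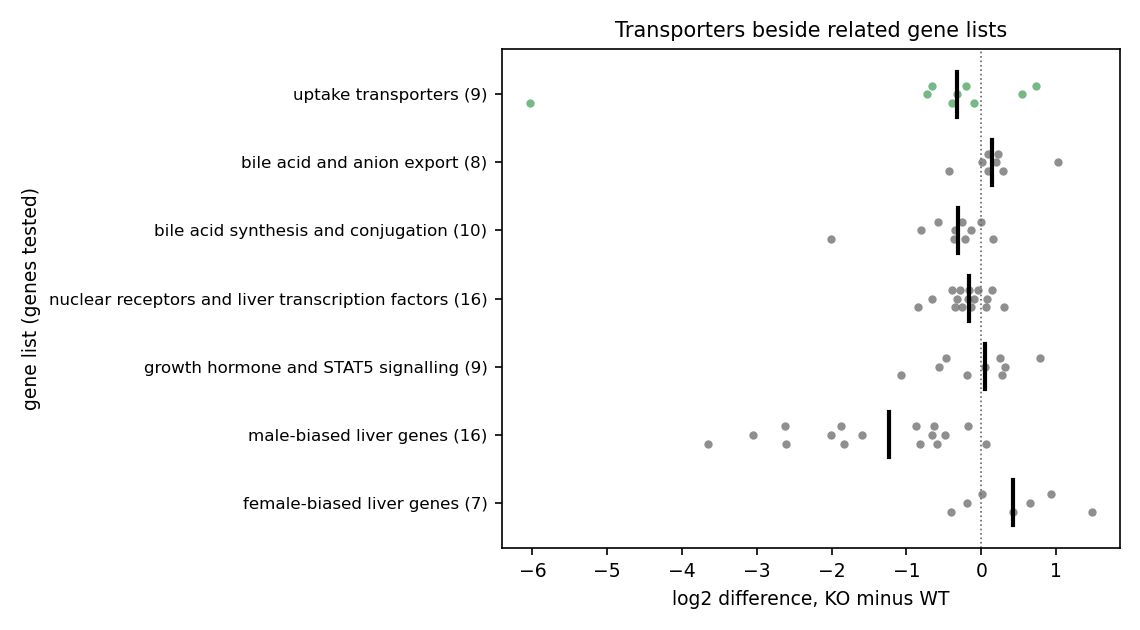
Log2 difference, KO minus WT (horizontal axis), of the 9 uptake transporters (green) and of the tested genes of 6 related lists (grey), with the number of genes in brackets. Each point is a gene, its vertical offset within a row has no meaning, and black bars are medians. The median is -0.32 for the uptake transporters, 0.14 for the export carriers and -1.24 for the male-biased genes.

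Among the nuclear receptors and liver transcription factors, 12 of 16 were lower in KO, with a median of -0.17. By limma 0 passed the adjusted threshold, and 2 were lower at an unadjusted p under 0.05 (3.92% of all genes tested). With a variance that follows intensity 1 was called lower (0.698% of all genes tested). That gene was Nr1i3, which encodes the xenobiotic receptor CAR, at -0.66 ± 0.19 (SE; adjusted p = 0.372, or 0.033 with a variance that follows intensity). The forkhead factor Foxa3 was at -0.85 ± 0.24 (SE; adjusted p = 0.368) and the fatty acid receptor Ppara at -0.39 ± 0.20 (SE; adjusted p = 0.585). Nr1h4, which encodes FXR, read 6.45 and 5.99 in WT, against 5.62 and 6.13 in KO, so its pools overlapped. Hnf4a read 7.40 and 7.52 in WT, against 7.23 and 7.13 in KO.

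Growth hormone acts on the liver through its receptor, the kinase JAK2 and the factor STAT5. Of 9 tested genes of this axis, 4 were lower and 5 higher, with a median of 0.06, and by limma 0 passed the adjusted threshold, also with a variance that follows intensity. At an unadjusted p under 0.05 there was 1 lower and 1 higher, beside 3.92% and 6.37% of all genes tested. The lower was Igfals, the acid-labile subunit that stabilises IGF1, at -1.07 ± 0.22 (SE; adjusted p = 0.278). The higher was Jak2, at 0.78 ± 0.25 (SE; adjusted p = 0.405). Igf1, the growth factor that the axis induces, read 6.84 and 6.61 in WT, against 6.17 and 6.35 in KO, without overlap (-0.47 ± 0.21 SE; adjusted p = 0.525). Stat5b read 4.47 and 4.65 in the WT pools, against 4.63 and 4.99 in the KO pools, which overlapped. The growth hormone receptor Ghr also overlapped, with 5.89 and 5.74 in WT, against 5.48 and 5.76 in KO.

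Slco1a1 was low together with other genes that male livers express more. Of 16 tested male-biased genes other than Slco1a1, 15 were lower in KO, with a median of -1.24. The 16 include Mup21 and Serpina1e, named above for their nearness to Slco1a1, and Cyp7b1 of the bile acid list. By limma 0 passed the adjusted threshold, and 11 were lower at an unadjusted p under 0.05 (3.92% of all genes tested). With a variance that follows intensity 9 were called lower (0.698% of all genes tested). The steroid dehydrogenase Hsd3b5 read 2.83 and 3.67 in WT, against 0.84 and 0.43 in KO. Cyp4a12a, a fatty acid hydroxylase, read 4.71 and 5.05 in WT, against 2.81 and 3.21 in KO, and Susd4, a complement regulator, was at -1.60 ± 0.24 (SE; adjusted p = 0.183). Of 17 female-biased genes on the array, 10 had means below the median of all probe sets and were not tested. Of the 7 tested, 5 were higher, with a median of 0.42. By limma 0 passed, and 3 were higher at an unadjusted p under 0.05 (6.37% of all genes tested). With a variance that follows intensity 1 was called higher (0.393% of all genes tested). Cyp2b9, the gene called there, read 5.41 and 5.48 in WT, against 6.58 and 7.27 in KO (1.48 ± 0.28 SE; adjusted p = 0.266, or 0.0121 with that variance). Cyp2b13, its close relative, was at 0.93 ± 0.27 (SE; adjusted p = 0.368) and the flavin monooxygenase Fmo2 at 0.66 ± 0.26 (SE; adjusted p = 0.484). Cyp2b13 read 0.30 and 0.60 in WT, against 1.68 and 1.08 in KO. Its WT mean of 0.45 was below the median of all probe sets, so only its KO pools brought it into the test. It counts among the 5 higher genes and the 3 at an unadjusted p under 0.05. The female-biased member Slco1a4 had overlapping pools, as given above. Both lists were drawn up with results of these arrays known, so they are no independent evidence of direction.

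The proteins that hold carriers at the membrane and the signals of inflammation were also read. Of 5 tested scaffold genes 2 were lower and 3 higher, with a median of 0.01. By limma 0 passed, also with a variance that follows intensity, and 1 was higher at an unadjusted p under 0.05 (6.37% of all genes tested). That gene was Ezr, which encodes the membrane-cytoskeleton linker ezrin, at 0.82 ± 0.23 (SE; adjusted p = 0.364). Its relative Msn was at 0.32 ± 0.20 (SE; adjusted p = 0.645), and Slc9a3r1, a scaffold with PDZ domains, at -0.12 ± 0.21 (SE; adjusted p = 0.880). Of 9 inflammatory cytokine and acute phase genes 4 were lower and 5 higher, with a median of 0.05. By limma 0 passed, also with a variance that follows intensity. At an unadjusted p under 0.05, 1 was lower and 2 higher, beside 3.92% and 6.37% of all genes tested. The cytokine Tnf read 1.39 and 0.89 in WT, against 2.01 and 2.28 in KO (1.01 ± 0.25 SE; adjusted p = 0.318). The iron-binding protein Lcn2 was at 0.62 ± 0.20 (SE; adjusted p = 0.405) and the acute phase protein Saa3 at -0.60 ± 0.21 (SE; adjusted p = 0.436), while Il1b read 1.05 and 1.94 in WT, against 1.76 and 1.33 in KO.

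Markers of other liver cells were read in the same pools. The 12 Kupffer cell and macrophage markers had a median of 0.35, with 9 higher and 3 lower, and their mean log2 level was 3.53 and 3.92 in WT, against 3.95 and 4.04 in KO. The scavenger receptor Marco was at -2.37 ± 0.33 (SE; limma, adjusted p = 0.181), the lipid receptor Trem2 at 1.30 ± 0.29 (SE; adjusted p = 0.297) and the membrane protein Ms4a7 at 1.28 ± 0.30 (SE; adjusted p = 0.297). The 8 stellate cell markers had a median of 0.13, with 6 higher and 2 lower, and mean levels of 3.44 and 3.31 in WT, against 3.42 and 3.79 in KO. The PDGF receptor gene Pdgfrb read 3.13 and 2.90 in WT, against 4.21 and 4.10 in KO (1.14 ± 0.20 SE; adjusted p = 0.240). Rgs5, of pericytes, was at 0.36 ± 0.19 (SE; adjusted p = 0.598) and the transcription factor Hand2 at 0.26 ± 0.43 (SE; adjusted p = 0.880). Of 4 tested cholangiocyte markers 3 were higher, with a median of 0.56, and mean levels over 6 markers on the array were 1.04 and 0.68 in WT, against 1.23 and 1.46 in KO. Krt7, 1 of the 3, had a WT mean below the median of all probe sets and was tested only through its KO pools. The 6 tested lymphocyte markers had a median of 0.17, with 3 higher and 3 lower. Cd8a, 1 of the 3 higher, had a WT mean below the median of all probe sets and was tested only through its KO pools. The T cell genes Cd3g and Cd4 were at 1.07 ± 0.34 (SE; adjusted p = 0.397) and -0.40 ± 0.20 (SE; adjusted p = 0.582), and the B cell gene Cd79a at 0.52 ± 0.19 (SE; adjusted p = 0.439). The KO mean of Cd4 was below the median of all probe sets. By limma 0 of the cell type markers passed an adjusted p of 0.05. With a variance that follows intensity Marco and the hepatocyte marker Cps1 were called lower, beside 0.698% of all genes tested. The part of these cells in the values of the transporters was not tested.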

How the data were processed

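Liver RNA of 2 WT and 2 Nrg4 KO pools was measured on 4 arrays, from 400 ng of RNA each, per the labels. The authors deposited log2 expression values of 41345 probe sets; the submitters' processing notes name limma, oligo and RMA, and the sources used here give neither versions nor build nor the scale's zero point. The number of arrays limits the precision, and no batch is recorded in the sources used here. Values ran from -1.12 to 11.9, with array medians of 0.52, 0.56, 0.64 and 0.53 (WT, then KO).

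Probe sets with 1 gene symbol in the platform annotation (23521, with 1814 having several and 16010 none) gave 22180 genes, using the brightest probe set of each. The 12458 genes whose mean reached the median over all probe sets were compared, KO minus WT, in limma 3.58.1 (R 4.3.3, statmod 1.5.0; lmFit, eBayes, Benjamini-Hochberg), with 2 residual and 3.67 prior degrees of freedom. Nrg4 and genes under the filter were read from a fit of all 22180 genes. The procedure was tested on simulated data. The members and lists were chosen with earlier results of these data known. Named are the 9 members, the 6 genes nearest in profile to Slco1a1 (clone and predicted names left out), the genes next to the chromosome 6 members, Nrg4, and the 3 genes of each list with the smallest p, and any past the threshold. Krt19, Nr1h4, Hnf4a, Stat5b, Ghr, Il1b, Cd8a, Slc10a4, Cyp2b10 and the Slco6 genes were named after their values were seen. Probe sets with several symbols, among them those of Pdzk1 and Slc51b, were not used here. Alternatives were quantile normalization, median-centred arrays, other filters and variance priors, the mean of a gene's probe sets, leaving out each pool, and pool number as a block.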

Additional observations from a re-analysis of the deposited data

How the results depend on the processing

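The number of transporters lower in KO stayed at 6 or 7 of 9 under all 12 alternatives, the change coming from Slc10a2 alone. Their median difference of -0.32 lay between -0.37 and -0.27 with the arrays centred on their medians or quantile normalized, and between -0.47 and -0.14 when 1 pool was left out, -0.14 being without KO pool 1. The limma call of Slco1a1, a gene picked for its size, was lost without any 1 pool. The 6 genes called by limma became 136 with a variance that follows intensity, 2 with pool number as a replicate block, and 0 without any 1 pool. Leaving out a pool leaves 1 residual degree of freedom and a lone pool assumed to vary like the other genotype. Called list genes went from 0 to 13 with a variance that follows intensity. Pools of the same number share only a number: their deviations from the group mean correlated at -0.04 over genes. Across single named genes, members included, 678 of the recomputed values kept their side of the threshold or stayed within the spread between pools. A further 12 passed the threshold only then, and 13 lost it (Slco1a1, Sult1e1 and Clec2h). The other 5 changed sign or, for members, shifted by more than the spread between pools. Without WT pool 1, the difference of Slc10a7 turned to 0.36 and that of Hand2 to -0.23. Hand2 was also negative without KO pool 2, since KO pool 1 read 1.23 against a WT mean of 1.40. Quantile normalization made Slco1b2 (-0.13) and Slco2a1 (-0.59) smaller in size. Dim values limit Slco3a1, the second Slco2b1 probe set and the KO level of Slco1a1.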
